A study of Homo sapiens with 30 samples.

Results

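FOXA1, HOXB13, GATA2, GRHL2, SPDEF and NR3C1 are transcription factor genes tied to the identity of prostate luminal cells and to steroid hormone response. They were taken by gene symbol, 6 of the 58735 genes in the deposited tables, and each matched 1 row. LNCaP, the cell line used, was established from a human prostate cancer and needs androgen to grow. All 5 lines carried a short hairpin RNA against mTOR, the growth-controlling kinase, and none without it was analysed here. An inducible system then supplied either an empty vector (EV) or a form of mTOR. WT-mTOR is the wild type, NES-mTOR carries a tag for export from the nucleus, NLS-mTOR a tag for import into it, and NLS-mTORKD adds to the latter the kinase-dead mutation D2357E. All cells spent 48 h in medium with 2% charcoal-stripped serum, which lacks androgens, and then 24 h with either 0.1% ethanol as vehicle or 10 nM R1881, a synthetic androgen. Each of the 10 groups had 3 libraries, 30 in all. The labels do not say whether the 3 came from separate cultures or how many clones a line held, so p-values measure only the spread between these libraries, which may be technical.

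Pioneer and lineage factors set which enhancers a steroid hormone can act on in a given tissue. FOXA1, a forkhead protein, opens compacted chromatin. GATA2 is a zinc-finger factor and HOXB13 a homeodomain factor largely restricted to prostate and distal gut, and both occupy many of the same enhancers. GRHL2, a grainyhead-like factor, maintains epithelial junction genes, and SPDEF is an ETS factor of luminal and secretory epithelia. NR3C1 encodes the glucocorticoid receptor, whose DNA element closely resembles the one used in the androgen response. It is known as a gene that androgen represses in prostate cells.

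FOXA1 lies on chromosome 14 (37589984 to 37596059), HOXB13 on chromosome 17 (48724763 to 48729178), GATA2 on chromosome 3 (128479427 to 128493185), SPDEF on chromosome 6 (34537802 to 34556333) and NR3C1 on chromosome 5 (143277931 to 143435512), each on the minus strand of hg38. Upstream windows of 250 bases were read from RefSeq promoter entries (GRCh38.p14) for the 4 members that had one. SPDEF, which rose with R1881, and GATA2 and NR3C1, which fell on average, are shown 5′ to 3′ on the gene's strand, ending at the base before the annotated start. For genes with several starts (2 windows for GATA2, 7 for NR3C1), 1 window clear of annotated exons was taken. In the SPDEF window 4 bases lie in an annotated exon. Capitals mark the only match among the motifs searched, an ETS core on the opposite strand.
SPDEF chr6:34556330-34556579: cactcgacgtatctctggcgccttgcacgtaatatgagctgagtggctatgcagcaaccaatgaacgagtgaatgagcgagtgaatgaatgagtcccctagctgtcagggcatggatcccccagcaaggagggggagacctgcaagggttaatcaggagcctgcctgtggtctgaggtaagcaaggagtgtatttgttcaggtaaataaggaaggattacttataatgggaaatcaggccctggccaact
GATA2 chr3:128493202-128493451: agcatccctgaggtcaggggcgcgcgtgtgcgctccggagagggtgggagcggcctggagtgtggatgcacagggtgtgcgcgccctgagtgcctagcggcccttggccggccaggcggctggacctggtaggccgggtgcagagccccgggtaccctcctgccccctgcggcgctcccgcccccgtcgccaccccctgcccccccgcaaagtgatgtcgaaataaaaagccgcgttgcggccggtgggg
NR3C1 chr5:143405356-143405605: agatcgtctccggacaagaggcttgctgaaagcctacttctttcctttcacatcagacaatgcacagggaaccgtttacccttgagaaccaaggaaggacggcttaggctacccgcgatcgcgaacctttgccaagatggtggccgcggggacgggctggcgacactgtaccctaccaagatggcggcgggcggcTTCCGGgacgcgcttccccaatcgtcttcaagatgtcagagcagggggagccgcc
The letters searched on both strands were AGAACA for the hormone half-site, GTAAACA for forkhead proteins, AGATAA for the zinc-finger family of GATA2, CAATAAA for posterior homeodomain proteins, CCGGAA for the ETS family and AACCGG for grainyhead proteins. The ETS and grainyhead letters have 4 letters in common and can overlap. Among 35116 promoter windows of the same length, 12.4% held the half-site letters, 2.98% the forkhead, 9.17% the zinc-finger, 3.66% the homeodomain, 14.5% the ETS and 5.99% the grainyhead letters. In the NR3C1 window shown, the ETS letters begin 55 bases before the start. A further NR3C1 window clear of annotated exons (chr5:143435513-143435762) held none of the letters searched. Another NR3C1 window, within an annotated exon, held forkhead letters 59 bases and ETS letters 173 bases before its start. No match says only that these letters are not in the window.

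Library totals ran from 21435364 to 61762468 gene-assigned counts. MTOR stood at 20.3 to 73.9 CPM (counts scaled to library size and composition) in the 6 EV libraries and at 596 to 7590 CPM in the 24 rescue libraries. It differed between rescue lines, at 3183 to 7590 CPM in NES-mTOR and 1480 to 2004 CPM in WT-mTOR. NLS-mTOR had 596 to 1340 CPM and NLS-mTORKD 647 to 1483 CPM. The part of MTOR level in differences between lines was not tested. Mitochondrial genes took 3.9 to 11.7% of counts, above 9% in 5 libraries. Summed over a library, 6 luminal prostate markers reached 211 to 2191 FPKM (fragments scaled to gene length and sequencing depth, a level per length). Of 4 basal markers, KRT5, TP63 and KRT15 averaged under 0.1 FPKM, and the summed level was at most 1.26 FPKM. Of 4 neuroendocrine markers, CHGA, INSM1 and NCAM1 averaged under 0.1 FPKM, with a summed level of 0.121 to 0.64 FPKM. Among 5 stromal markers COL1A2 and DCN averaged under 0.1 FPKM, with a summed level of 1.03 to 3.06 FPKM.

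Compared per length, the 6 factors separated into abundant, intermediate and barely detected transcripts. With vehicle, FOXA1 (median 172, range 147 to 196 FPKM over 15 libraries) and HOXB13 (median 166, range 124 to 213 FPKM) led in every line, and their ranges overlapped. GATA2 followed at a median of 53.8 FPKM, then SPDEF at 32.2 FPKM and GRHL2 at 17.6 FPKM, in this order in all 5 lines. NR3C1 came last, at a median of 0.171 FPKM. R1881 changed the order. By group mean, SPDEF became the most abundant of the 6 in the EV line (236 ± 26.8 FPKM, SD, n = 3) and in the NES-mTOR line (193 ± 25.9 FPKM, SD, n = 3). In NES-mTOR with R1881 FOXA1 was at 164 ± 18.3 FPKM (SD, n = 3), so their spreads overlapped. GRHL2 passed GATA2 by group mean in all 5 lines. These are bulk libraries, in which fewer cells of a type and less RNA per cell cannot be told apart.

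**Figure D1:**
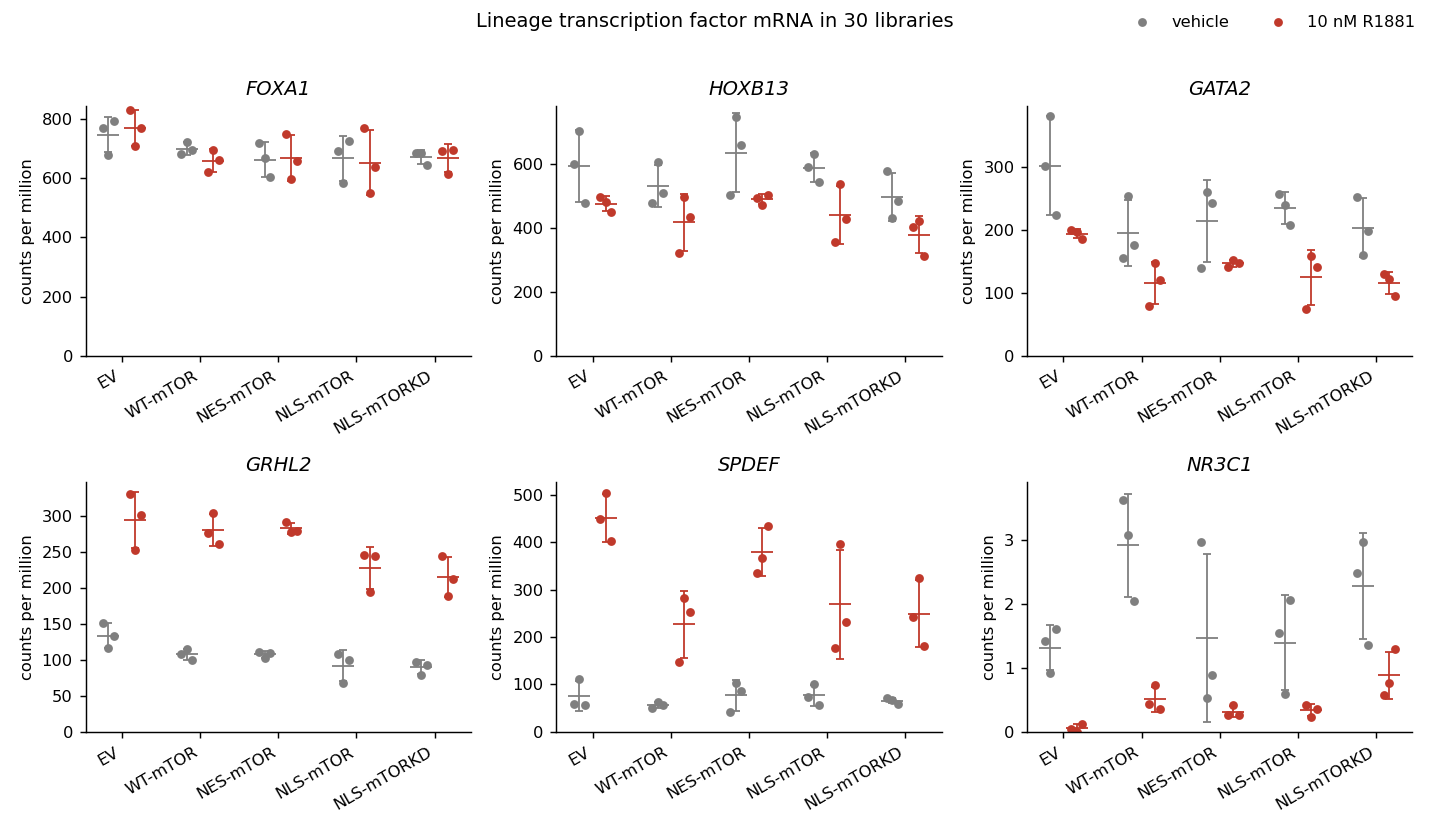
CPM (linear axis from 0) of each factor in the 30 libraries, by line and treatment, with points for libraries, a dash for the group mean and bars of 1 SD. SPDEF and GRHL2 with R1881 lie above every vehicle library, FOXA1 treatments overlap in each line, and NR3C1 stays under 4 CPM.

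SPDEF showed the strongest induction among the 6. SPDEF stood at 58.0, 112 and 56.5 CPM with vehicle and at 448, 504 and 402 CPM with R1881 in the EV line. WT-mTOR cells had 49.5, 62.1 and 56.2 CPM of SPDEF with vehicle and 148, 282 and 252 CPM with R1881. NES-mTOR cells had 41.3, 104 and 85.6 CPM, then 335, 367 and 434 CPM. In each of these lines the highest vehicle library lay below the lowest R1881 library. For this and all later statements on overlap, the share over all genes was not computed. With NLS-mTOR, SPDEF was at 74.3, 101 and 57.1 CPM without and 177, 397 and 232 CPM with R1881. With NLS-mTORKD it was at 71.4, 67.5 and 59.6 CPM without and 243, 324 and 182 CPM with R1881. Over all lines the 15 vehicle libraries (41.3 to 112, median 62.1 CPM) and the 15 R1881 libraries (148 to 504, median 324 CPM) did not overlap. SPDEF rose 5.98-fold in EV (log2 fold change 2.58 ± 0.34 SE, edgeR adjusted p = 5.28e-06). The log2 fold change was 2.02 ± 0.33 in WT-mTOR (edgeR adjusted p = 1.58e-04), 2.30 ± 0.34 in NES-mTOR (2.56e-05), 1.79 ± 0.33 in NLS-mTOR (8.65e-04) and 1.92 ± 0.33 in NLS-mTORKD (4.18e-04). Averaged over the lines it was 2.12 ± 0.15 (edgeR adjusted p = 1.25e-11). With a fit on the NLS-mTOR groups alone the NLS-mTOR call was lost (edgeR adjusted p = 0.0669, 2.4e-12 to 0.0669 over the alternatives).

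GRHL2, the epithelial grainyhead factor on the plus strand of chromosome 8 (101492432 to 101669726), rose by a similar fold in every line. GRHL2 stood at 151, 117 and 134 CPM with vehicle and at 330.3, 253 and 301 CPM with R1881 in the EV line. WT-mTOR cells had 108, 116 and 99.4 CPM of GRHL2 with vehicle and 277, 305 and 262 CPM with R1881. NES-mTOR cells went from 111, 102 and 110.0 CPM to 292, 279 and 279 CPM. The 3 R1881 libraries of NES-mTOR differed by less than those of any other line for this gene. With NLS-mTOR, GRHL2 was at 109, 67.6 and 100.5 CPM without and 246, 194 and 244 CPM with R1881. With NLS-mTORKD it was at 97.5, 78.6 and 92.6 CPM without and 244, 188 and 212 CPM with R1881. Again no R1881 library (188 to 330.3 CPM) reached down to the vehicle range (67.6 to 151 CPM). The log2 fold change was lowest in EV (1.14 ± 0.16 SE, edgeR adjusted p = 1.53e-05) and highest in NES-mTOR (1.40 ± 0.16, edgeR adjusted p = 8.59e-07). WT-mTOR gave 1.38 ± 0.16 (edgeR adjusted p = 1.12e-06), NLS-mTOR 1.31 ± 0.16 (3.7e-06) and NLS-mTORKD 1.26 ± 0.16 (6.47e-06). Averaged over the lines GRHL2 rose 2.46-fold (1.30 ± 0.07, edgeR adjusted p = 1.09e-13). As for SPDEF, the NLS-mTOR call was lost in a fit on its own groups (edgeR adjusted p = 0.0625, 4.67e-13 to 0.0625 over the alternatives).

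GATA2 moved the other way by a smaller amount. GATA2 stood at 302, 381 and 223 CPM with vehicle and at 199.7, 197 and 185 CPM with R1881 in the EV line. WT-mTOR cells had 155, 254 and 176 CPM of GATA2 with vehicle and 79.4, 146 and 120.0 CPM with R1881. NES-mTOR cells had 139, 259 and 242 CPM, then 140.5, 152 and 147 CPM. Treatments overlapped for GATA2 in NES-mTOR, where the first vehicle library was as low as the R1881 libraries, and in no other line. With NLS-mTOR, GATA2 was at 257, 239 and 208 CPM without and 74.3, 158 and 141 CPM with R1881. With NLS-mTORKD it was at 252, 159.8 and 198 CPM without and 129, 122 and 95.03 CPM with R1881. The log2 fold change lay between -0.54 ± 0.27 in NES-mTOR and -0.92 ± 0.27 in NLS-mTOR, with edgeR adjusted p-values of 0.274 and 0.0522. In this fit no single line passed the threshold (EV -0.64, WT-mTOR -0.76, NLS-mTORKD -0.82, edgeR adjusted p = 0.167, 0.107 and 0.109). Averaged over the 5 lines GATA2 fell 1.66-fold (-0.73 ± 0.12, edgeR adjusted p = 3e-05). Libraries with the same replicate number deviated together in 4 of the 5 lines. A block for that number was fitted once over all 10 groups, also those whose numbers did not deviate together. With that number as a block, edgeR gave adjusted p = 0.0444 in WT-mTOR (0.0241 to 0.104 over the alternatives) and 0.035 in NLS-mTORKD (0.00893 to 0.105). Both also passed with no filter on low counts (edgeR adjusted p = 0.0241 and 0.00893). NLS-mTORKD passed as well in a fit on its own groups (edgeR adjusted p = 0.046) and with DESeq2 (adjusted p = 0.0435). The NLS-mTOR response passed with no filter on low counts (edgeR adjusted p = 0.00218), with upper-quartile factors (0.0423), with limma on log2(FPKM + 1) (0.0346) and with DESeq2 (0.0152), and the range over the alternatives was 0.00218 to 0.319. Without the second R1881 library of NLS-mTOR it was -1.12 with edgeR adjusted p = 0.0297.

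HOXB13 was lower with R1881 by a narrow margin in each line. Its 15 vehicle libraries spanned 430.5 to 746 CPM (median 578) and its 15 R1881 libraries 313 to 535 CPM (median 449). Group means with vehicle and with R1881 were 594 ± 114 and 475 ± 23.5 CPM in EV, and 531 ± 65.9 and 417 ± 88.1 CPM in WT-mTOR (SD, n = 3). They were 635 ± 123 and 489.6 ± 16.7 CPM in NES-mTOR, 588 ± 44.8 and 439.7 ± 90.2 CPM in NLS-mTOR, and 498 ± 74.8 and 378 ± 57.7 CPM in NLS-mTORKD (SD, n = 3). Only NLS-mTOR and NLS-mTORKD had treatments that did not overlap, a description for which the share over all genes was not computed. The log2 fold change ran from -0.32 to -0.42 with an SE of 0.19, and no line passed the threshold (edgeR adjusted p from 0.274 to 0.417). Averaged over the lines HOXB13 fell 1.30-fold (-0.37 ± 0.08, edgeR adjusted p = 0.00108).

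FOXA1, the pioneer factor, stayed within its replicate spread. Vehicle libraries spanned 583 to 794 CPM (median 686) and R1881 libraries 551 to 830.3 CPM (median 694), and the treatments overlapped in all 5 lines. The highest library of all 30 was 1.51 times the lowest, against 12.2 times for SPDEF. The averaged log2 fold change was -0.01 ± 0.06 (95% interval -0.13 to 0.10, edgeR adjusted p = 0.897). Single lines lay between -0.09 and 0.04 with an SE of 0.13.

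NR3C1 was scarce everywhere and scarcer with R1881. NR3C1 stood at 1.42, 0.925 and 1.60 CPM with vehicle and at 0.0404, 0 and 0.128 CPM with R1881 in the EV line. These R1881 values are 1, 0 and 3 counts, and the library without a count allows up to 0.131 CPM. WT-mTOR cells had 3.62, 3.08 and 2.04 CPM of NR3C1 with vehicle and 0.427, 0.733 and 0.356 CPM with R1881. NES-mTOR cells had 2.97, 0.53 and 0.893 CPM, then 0.269, 0.415 and 0.261 CPM. The first NES-mTOR vehicle library was far above the other two. With NLS-mTOR, NR3C1 was at 1.54, 0.584 and 2.06 CPM without and 0.42, 0.239 and 0.358 CPM with R1881. With NLS-mTORKD it was at 2.49, 2.97 and 1.36 CPM without and 0.58, 0.768 and 1.29 CPM with R1881. In each line every R1881 library lay below every vehicle library. From counts summed over 3 libraries and scaled to depth, NR3C1 was 23.4 times higher with vehicle in EV (99 against 4 counts, exact 95% interval 8.84 to 87.4). The ratio was 5.93 (4.20 to 8.60) in WT-mTOR, 5.12 (3.43 to 7.83) in NES-mTOR, 3.98 (2.62 to 6.20) in NLS-mTOR and 2.56 (1.88 to 3.51) in NLS-mTORKD. These intervals cover counting error only.

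The fitted log2 fold change of NR3C1 was -4.43 ± 0.76 in EV (edgeR adjusted p = 1.92e-04), where it rests on the 4 counts. It was -2.53 ± 0.57 in WT-mTOR (edgeR adjusted p = 0.00492) and -2.23 ± 0.59 in NES-mTOR (0.0154). NLS-mTOR (-2.001 ± 0.59, edgeR adjusted p = 0.0502) and NLS-mTORKD (-1.36 ± 0.55, edgeR adjusted p = 0.260) did not pass. The average was -2.51 ± 0.28 (edgeR adjusted p = 5.52e-08). The NES-mTOR value fell to -1.21 (edgeR adjusted p = 0.324) without its first vehicle library, and its call was also lost without the first (0.0743) or the third (0.0721) of its R1881 libraries and in a fit on its own groups (0.110). The NLS-mTOR response passed with no filter on low counts (edgeR adjusted p = 0.0238), with upper-quartile factors (0.0347) and with DESeq2 (0.0131), and the range over the alternatives was 0.0131 to 0.327. It also passed without the second NLS-mTOR vehicle library (-2.36, edgeR adjusted p = 0.0224). On log2(FPKM + 1) values, whose pseudocount exceeds the highest NR3C1 level of 0.388 FPKM, limma did not call EV (adjusted p = 0.0895, 2.62e-07 to 0.0895 over the alternatives) or NES-mTOR (0.178, 0.00183 to 0.178).

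**Figure D2:**
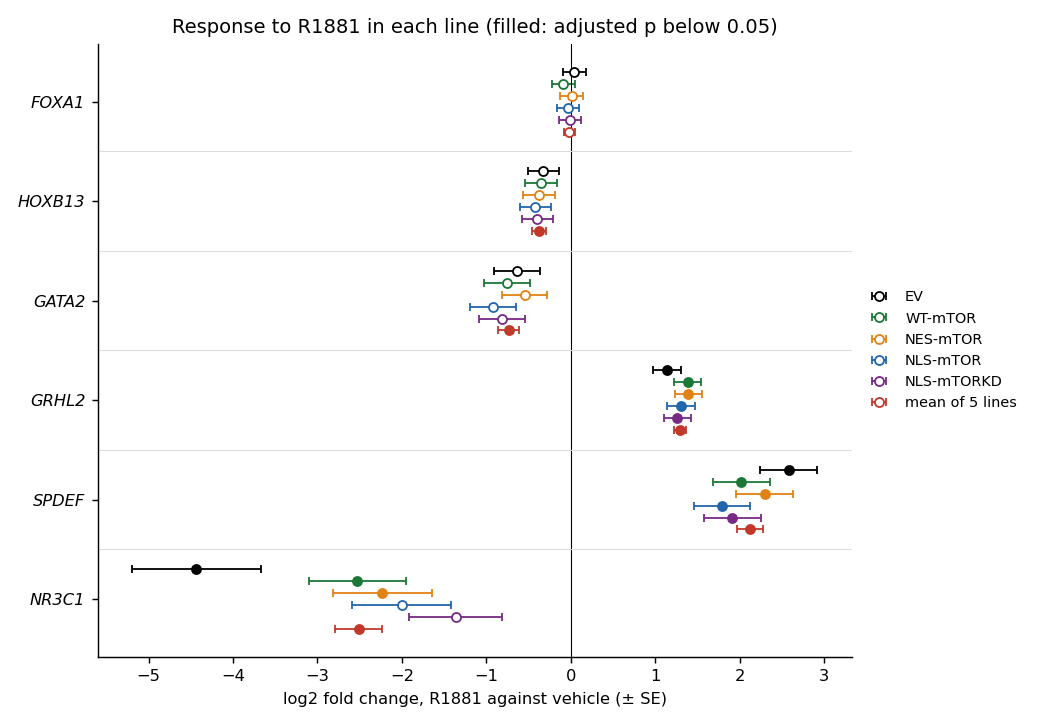
Log2 fold change of R1881 against vehicle (x axis, bars of 1 SE) for each factor in each line and averaged over the lines, with filled points at an adjusted p under 0.05. All 5 lines lie on the same side of 0 for every factor but FOXA1, from 2.58 for SPDEF to -4.43 for NR3C1, both in EV.

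Calls were made where the Benjamini-Hochberg adjusted p over 18296 tested genes was under 0.05, and all 6 factors were among those tested. In EV 2 factors were called higher and 1 lower, where 9.11% of all tested genes were called. WT-mTOR and NES-mTOR gave the same counts, beside 6.48% and 8.25% of all genes. NLS-mTOR and NLS-mTORKD had 2 higher and 0 lower, beside 4.44% and 4.08%. These add up to 13 of 30 tests. In the averaged response 5 of 6 were called, 2 higher and 3 lower, beside 27.4% of all genes. The median log2 fold change of the 6 in that response was -0.19, against 0.00 for all genes.

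Whether the size of a response differed between lines was tested as a difference of fold changes. None of 30 such tests on the 6 factors passed with edgeR or with DESeq2, 3 had an unadjusted p under 0.05, and between 0% and 0.0437% of all genes were called. Against the EV response, 0.0437% of genes were called for WT-mTOR, 0% for NES-mTOR, 0.0164% for NLS-mTOR and 0.0164% for NLS-mTORKD. For NLS-mTOR against NLS-mTORKD it was 0%. The 3 were NR3C1 in NES-mTOR, NLS-mTOR and NLS-mTORKD, whose falls were smaller than in EV by 2.20 ± 0.99, 2.43 ± 0.99 and 3.07 ± 0.96 log2 units (unadjusted p = 0.0346, 0.0208 and 0.0036). Their edgeR adjusted p-values were 1, 1 and 0.793, and all 3 share the EV libraries with 4 counts. For SPDEF the response was smaller than in EV by 0.79 ± 0.46 in NLS-mTOR (95% interval of the difference -1.68 to 0.11, edgeR adjusted p = 1). For GRHL2 the differences lay between 0.04 and 0.25, with intervals from -0.40 to 0.70. For FOXA1 all intervals lay between -0.50 and 0.35.

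The rescue lines were then set against EV within each treatment. All 4 comparisons of a treatment share the same 3 EV libraries. Of 48 tests on the 6 factors 3 passed with edgeR, 7 with DESeq2, and 17 had an unadjusted p under 0.05. With vehicle 6.71% of all genes were called for WT-mTOR, 4.94% for NES-mTOR, 4.57% for NLS-mTOR and 4.01% for NLS-mTORKD. With R1881 the shares were 8.49%, 6.96%, 6.23% and 5.75%.

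NR3C1 was higher than EV under R1881 in 2 of 4 rescue lines by the test. WT-mTOR had a log2 difference of 3.05 ± 0.80 (edgeR adjusted p = 0.0145) and NLS-mTORKD one of 3.85 ± 0.78 (edgeR adjusted p = 0.00231). NES-mTOR (2.37 ± 0.82, edgeR adjusted p = 0.0881) and NLS-mTOR (2.52 ± 0.82, edgeR adjusted p = 0.0688) did not pass. No rescue library with R1881 was as low as the highest EV library. The counts were 4 in EV against 38 in WT-mTOR, 32 in NES-mTOR, 30 in NLS-mTOR and 58 in NLS-mTORKD, so each difference rests on the 4 EV counts. With vehicle the differences were 0.09 to 1.14 and none passed. The WT-mTOR call was lost without the first (edgeR adjusted p = 0.0673) or second (0.0818) EV library or the second WT-mTOR library (0.0682). With limma on log2(FPKM + 1) both calls were lost, with adjusted p = 0.694 for WT-mTOR (0.00458 to 0.694 over the alternatives) and 0.391 for NLS-mTORKD (6.2e-05 to 0.391).

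GRHL2 was below EV in all 8 comparisons, by 0.06 to 0.58 log2 units, and passed in 1. That was NLS-mTORKD with vehicle (-0.58 ± 0.16, edgeR adjusted p = 0.0390), where the values 97.5, 78.6 and 92.6 CPM lay below all 3 EV values. The call was lost in a fit with no filter on low counts (edgeR adjusted p = 0.302), in a fit on its own groups (0.161) and with the 5 libraries above 9% mitochondrial counts left out (0.202), with 0.00572 to 0.302 over the alternatives. It was lost as well without any of 5 of the 6 libraries, all but the second EV library (edgeR adjusted p from 0.0728 to 0.241). NLS-mTOR with vehicle gave -0.53 ± 0.16 (edgeR adjusted p = 0.0557) and passed without the second EV library (-0.62, 0.0432) or the first NLS-mTOR library (-0.64, 0.0477). Both of these lines met the rule for same-numbered libraries deviating together with those of EV. With vehicle NLS-mTORKD met it narrowly, with a lowest correlation of 0.109. There the first and second EV libraries deviated most like an NLS-mTORKD library of another number. With the replicate block the NLS-mTOR value with vehicle passed (edgeR adjusted p = 0.00833, 0.00833 to 0.502 over the alternatives). DESeq2 (adjusted p = 0.0254) and limma on log2(FPKM + 1) (adjusted p = 0.0338) called it as well. NLS-mTORKD with R1881 was at -0.46 ± 0.16 (edgeR adjusted p = 0.103) and passed with the block (0.0244, 0.0244 to 0.381 over the alternatives). It also passed with DESeq2 (adjusted p = 0.042) and without the 5 libraries above 9% mitochondrial counts (edgeR adjusted p = 0.0439).

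SPDEF, GATA2, HOXB13 and FOXA1 gave no call against EV in this fit, and for SPDEF and GATA2 this depended on the settings. SPDEF with R1881 was lower than EV by 0.99 ± 0.32 log2 units in WT-mTOR (edgeR adjusted p = 0.0583), 0.75 ± 0.32 in NLS-mTOR (0.213) and 0.85 ± 0.32 in NLS-mTORKD (0.138), with no overlap with the EV libraries. The WT-mTOR value of SPDEF passed with no filter on low counts (edgeR adjusted p = 0.000333), in a fit on its own groups (0.0124), with DESeq2 (0.0196), with limma on log2(FPKM + 1) (0.0398) and with the 5 libraries above 9% mitochondrial counts left out (0.0421). It did not pass with upper-quartile factors (edgeR adjusted p = 0.0691, 0.000333 to 0.0691 over the alternatives) or with any single library left out (0.0621 to 0.235). In NES-mTOR the SPDEF difference was -0.25 ± 0.32 (edgeR adjusted p = 0.766) and the libraries overlapped. The replicate block over all groups, read here for pairs whose numbers deviated together, gave SPDEF an edgeR adjusted p of 0.0254 in NLS-mTOR (0.0253 to 0.401 over the alternatives) and 0.0159 in NLS-mTORKD (0.00493 to 0.208). Both SPDEF values also passed with no filter on low counts (edgeR adjusted p = 0.0253 and 0.00493). GATA2 was lower than EV in all 8 comparisons, by 0.36 to 0.75 log2 units (edgeR adjusted p from 0.0917 to 0.611). In WT-mTOR with R1881 it was at -0.75 ± 0.27 (edgeR adjusted p = 0.0917) and passed with no filter on low counts (0.0154), in a fit on its own groups (0.0344) and with DESeq2 (0.0400), with 0.0154 to 0.0953 over the alternatives. Its value in NLS-mTORKD with R1881 was -0.75 ± 0.27 (edgeR adjusted p = 0.114, with the block 0.0482, and 0.0223 to 0.170 over the alternatives). That value also passed with no filter on low counts (edgeR adjusted p = 0.0223) and in a fit on its own groups (0.0487). HOXB13 lay between -0.33 and 0.10 of EV (95% intervals from -0.69 to 0.46). FOXA1 lay between -0.24 and -0.09 of EV (95% intervals from -0.50 to 0.17).

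**Figure D3:**
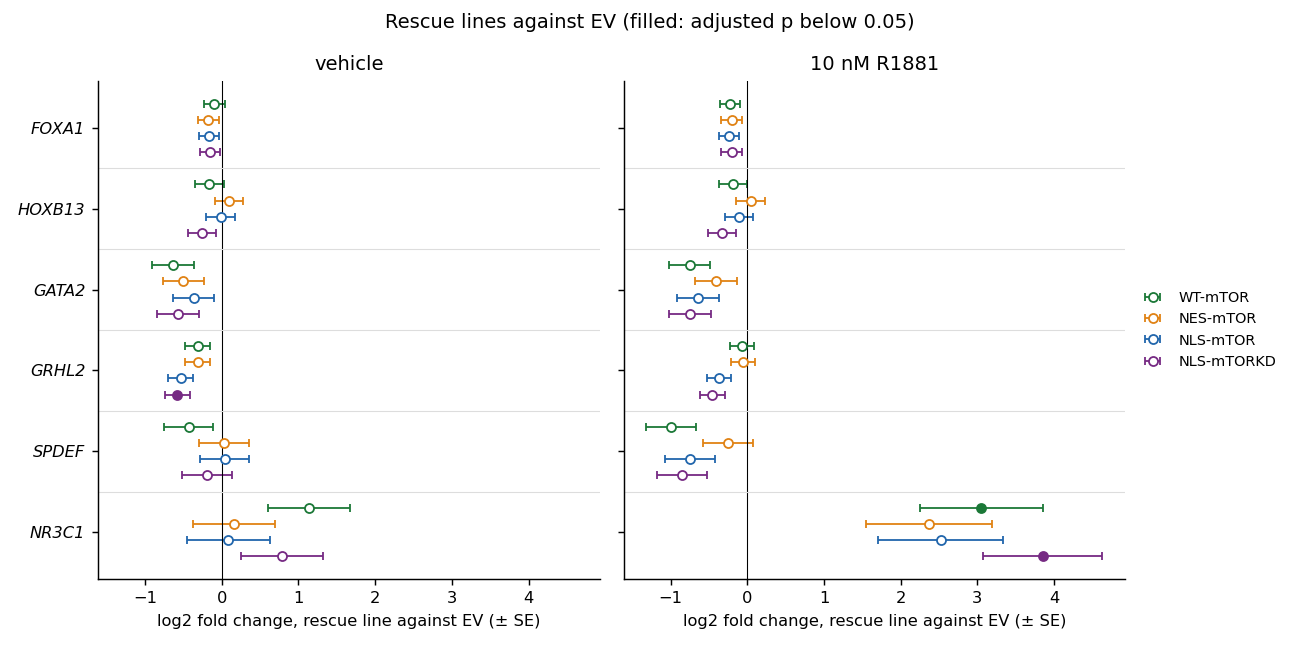
Log2 fold change of each rescue line against EV (x axis, bars of 1 SE), with vehicle at left and R1881 at right, and filled points at an adjusted p under 0.05. The 3 filled points are GRHL2 in NLS-mTORKD with vehicle and NR3C1 in WT-mTOR and NLS-mTORKD with R1881.

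Among the rescue lines themselves none of 48 tests on the 6 factors passed with edgeR or DESeq2, and 2 had an unadjusted p under 0.05. SPDEF with R1881 was higher in NES-mTOR (335 to 434 CPM) than in WT-mTOR (148 to 282 CPM), by 0.74 ± 0.32 log2 units (95% interval 0.10 to 1.37, edgeR adjusted p = 0.464). MTOR itself was also higher in NES-mTOR than in WT-mTOR, and its part in this difference was not tested. NR3C1 with R1881 was lower in NLS-mTOR than in NLS-mTORKD by 1.33 ± 0.60 log2 units (95% interval -2.51 to -0.16, edgeR adjusted p = 1). With vehicle 1.2% of all genes were called for NES-mTOR against WT-mTOR, 0.481% for NLS-mTOR against WT-mTOR, 1.03% for NLS-mTOR against NES-mTOR and 0.0109% for NLS-mTOR against NLS-mTORKD. With R1881 these shares were 1.45%, 0.465%, 1.37% and 0.00547%. FOXA1 differences here lay within 95% intervals of -0.34 to 0.28, and those of HOXB13 within -0.52 to 0.62.

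In the order of the 10 group means, neighbours mostly overlapped. For FOXA1 and HOXB13 all 9 neighbouring pairs had overlapping libraries. GATA2 had 1 step without overlap, between NES-mTOR and EV with R1881 (edgeR adjusted p = 0.476). SPDEF had 1, between the highest vehicle group (NLS-mTOR, 77.5 CPM) and the lowest R1881 group (WT-mTOR, 227 CPM). GRHL2 had 3, of which 1 separated the treatments. Another set EV with vehicle above the other vehicle groups (nearest WT-mTOR, edgeR adjusted p = 0.331). The last lay between NLS-mTOR and WT-mTOR with R1881 (edgeR adjusted p = 0.918). NR3C1 had 1, between EV, with its 4 counts, and NES-mTOR with R1881 (edgeR adjusted p = 0.0881). These steps are a description of 3 libraries per group, and their share over all genes was not computed.

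Within groups, some factors shared their high and low libraries. The same library was highest for HOXB13 and SPDEF in 9 of 10 groups and lowest in 8. HOXB13 and GATA2 shared the highest library in 7 groups and the lowest in 9. FOXA1 and GRHL2 shared the highest in 7 and the lowest in 6. FOXA1 and SPDEF shared the highest in 3 and the lowest in 3, and HOXB13 and NR3C1 in 1 and 0. These pairs share libraries and depth, and the agreement is a description with no test. The same agreement over all pairs of genes was not computed.

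Several factors overlap a gene on the opposite strand, and the sources used here do not state whether counting used strand, so such reads cannot be told apart. TTC6, opposite FOXA1, had counts equal to 15.7% of those of FOXA1, with an averaged log2 fold change of 0.53 (edgeR adjusted p = 5.95e-06). GATA2-AS1 had 22.7% of the counts of GATA2, with 0.08 (edgeR adjusted p = 0.45). AP001207.3, within GRHL2, had 0.911% of its counts. RPL7P21, a pseudogene opposite NR3C1 that was not tested, had 6.44% of the counts of NR3C1 and at most 0.207 CPM. HOXB13 and SPDEF had no such partner in the table.

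By Pearson correlation over the 10 group means of log2(CPM + 1), against protein-coding genes averaging at least 5 CPM, the 3 most alike of at least 10304 candidates were taken for each factor, so their correlations are high by selection. SPDEF was most like EPN2 (r = 0.997), MICAL1 (0.997) and AKAP12 (0.995), which rose by 0.97, 2.36 and 5.87 log2 units in the averaged response. GRHL2 was most like ZBTB16 (r = 0.993), HERC3 (0.991) and RAB3B (0.988), which rose by 2.33, 2.28 and 1.93. GATA2 was most like TSPAN15 (r = 0.976), MAPKAPK2 (0.962) and SEPTIN9 (0.96). HOXB13 was most like COL9A2 (r = 0.954), SPTAN1 (0.944) and FAM53B (0.94). FOXA1 was most like CCDC32 (r = 0.971), MTFMT (0.969) and ATP8B1 (0.964), and NR3C1 like SLX4IP (0.978), TAPT1 (0.971) and EPC1 (0.965). Over the 30 single libraries the correlations of these genes with their factor were lower, down to 0.666 for MTFMT with FOXA1, 0.711 for SPTAN1 with HOXB13 and 0.731 for MAPKAPK2 with GATA2, and 0.969 or more for the genes named for GRHL2. These points share libraries, and for factors that respond to R1881 the treatment makes up much of the spread.

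Close relatives of the 6 were mostly rare in these cells. Of 19 relatives 11 were tested, and FOXA2 had 0 counts in all 30 libraries. GATA3, known from mammary luminal cells, averaged 0.00989 FPKM beside the GATA2 level above, and ERG, the ETS gene often fused in prostate cancer, 0.000481 FPKM. The ETS genes EHF (58.0 FPKM) and ETV1 (34.6 FPKM) were the most abundant relatives. No relative rose and 2 to 4 of the 11 fell in a single line, beside 4.08% to 9.11% of all genes called, with list medians of -0.56 to -0.18 against -0.04 to 0.02 for all genes. In the averaged response 1 rose and 6 fell, beside 27.4% of all genes called. HOXC13, the paralogue of HOXB13, fell by 1.16 ± 0.09 log2 units (edgeR adjusted p = 1.64e-10). ELF3, an epithelial ETS gene, fell by 0.84 ± 0.09 (edgeR adjusted p = 4.29e-08). PGR, the progesterone receptor gene, fell from 506 counts in the 15 vehicle libraries to 30 in the 15 R1881 libraries (edgeR adjusted p = 5.15e-09). Against EV under R1881 ELF3 was lower in all 4 rescue lines, in WT-mTOR by 1.51 ± 0.21 (edgeR adjusted p = 1.53e-05). ELF5 was lower in all 4 as well, with 6 counts in WT-mTOR against 285 in EV (edgeR adjusted p = 2.51e-05). GRHL3 was lower in NLS-mTORKD by 2.02 ± 0.46 (edgeR adjusted p = 0.00699).

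**Figure D4:**
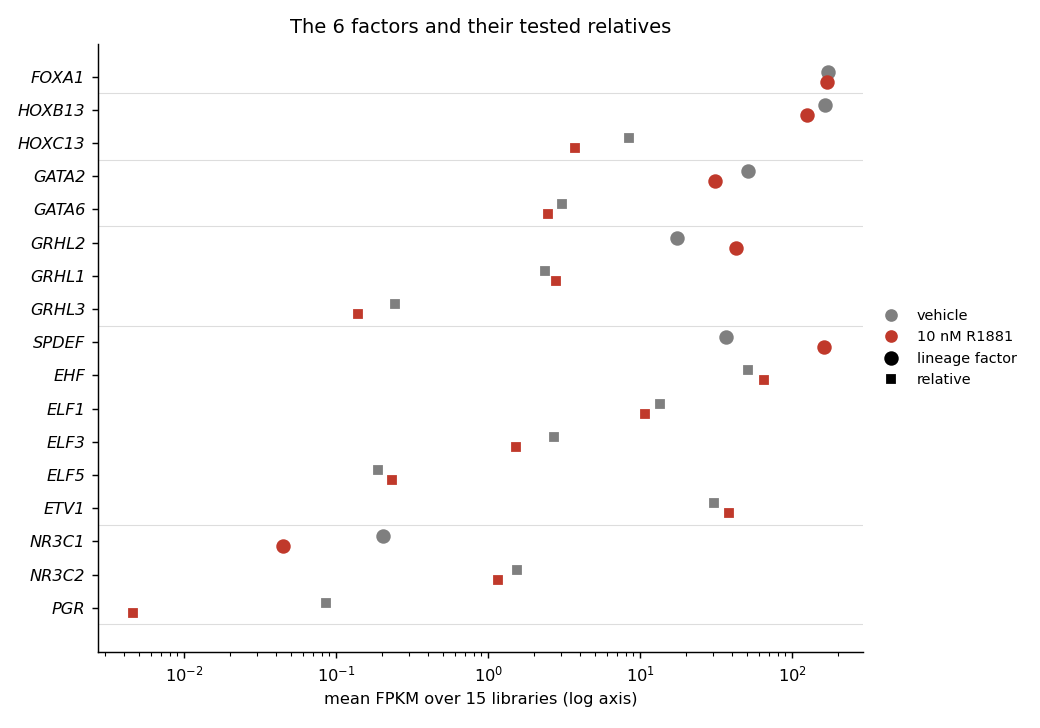
Mean FPKM over the 15 vehicle and the 15 R1881 libraries (log axis) for the 6 factors (circles) and their 11 tested relatives (squares), by family. In each family but the steroid receptors the lineage factor lies above its tested relatives with R1881, and with vehicle EHF lies above SPDEF.

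The HOXB neighbours of HOXB13 were low, with 4 of 8 tested. HOXB9 averaged 1.78 FPKM and fell by 0.38 ± 0.10 log2 units in the averaged response (edgeR adjusted p = 0.00684). HOXB9 was higher in NES-mTOR than in EV with vehicle by 1.09 ± 0.23 (edgeR adjusted p = 0.00425). HOXB7 (-0.64, edgeR adjusted p = 0.371) and HOXB6 (-0.27, edgeR adjusted p = 0.658) did not pass in the averaged response. HOXB5 had 70 counts in EV with vehicle and 0 in WT-mTOR (edgeR adjusted p = 0.00292), and HOXB6 had 137 and 10 (edgeR adjusted p = 0.00619). HOXB5 was also lower than EV with vehicle in NES-mTOR (edgeR adjusted p = 0.00414) and NLS-mTOR (0.0196). HOXB13 itself had 44714 and 41478 counts in these groups.

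Many genes known to respond to glucocorticoids, but not all of those tested, rose with R1881 while NR3C1 was lower. The part of NR3C1 in the changes of such genes was not tested. Of 16 genes listed 15 were tested. The list also holds HSD11B1 and HSD11B2, which encode enzymes of glucocorticoid metabolism. In EV 10 rose, in WT-mTOR 8, in NES-mTOR 9, in NLS-mTOR 8 and in NLS-mTORKD 7, and none fell in a single line, beside 4.08% to 9.11% of all genes called. In the averaged response, in which 27.4% of all genes were called, 10 rose and 1, TSC22D3 (-0.51, edgeR adjusted p = 4.14e-04), fell, and the list median was 1.19 against 0.00 for all genes. FKBP5, a receptor co-chaperone, rose by 4.38 ± 0.12 log2 units (edgeR adjusted p = 2.74e-20). SGK1, a kinase of ion transport, rose by 4.29 ± 0.20 (edgeR adjusted p = 1.59e-15), and ERRFI1, a feedback inhibitor of EGFR, by 2.42 ± 0.11 (1.26e-15). Against EV under R1881, 4 or 5 of the 15 were lower in each rescue line, beside 5.75% to 8.49% of all genes called, and HSD11B2 was higher in NES-mTOR (1.13 ± 0.33, edgeR adjusted p = 0.0388). ERRFI1 was lower in all 4 lines under R1881, by 1.18 to 1.76 log2 units (edgeR adjusted p from 1.79e-05 to 0.00159). TSC22D3 was lower than EV in all 4 lines under both treatments, by 1.36 ± 0.23 in NLS-mTORKD with R1881 (edgeR adjusted p = 4.3e-04) to 2.20 ± 0.24 in WT-mTOR with vehicle (3.98e-07). CRISPLD2 was higher than EV with vehicle in WT-mTOR (1.91 ± 0.24, edgeR adjusted p = 4.01e-06), NES-mTOR (1.09 ± 0.24, 0.00458) and NLS-mTOR (1.05 ± 0.24, 0.00693), and lower with R1881 in NLS-mTOR (-0.82, 0.0265) and NLS-mTORKD (-1.17, 0.00186).

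**Figure D5:**
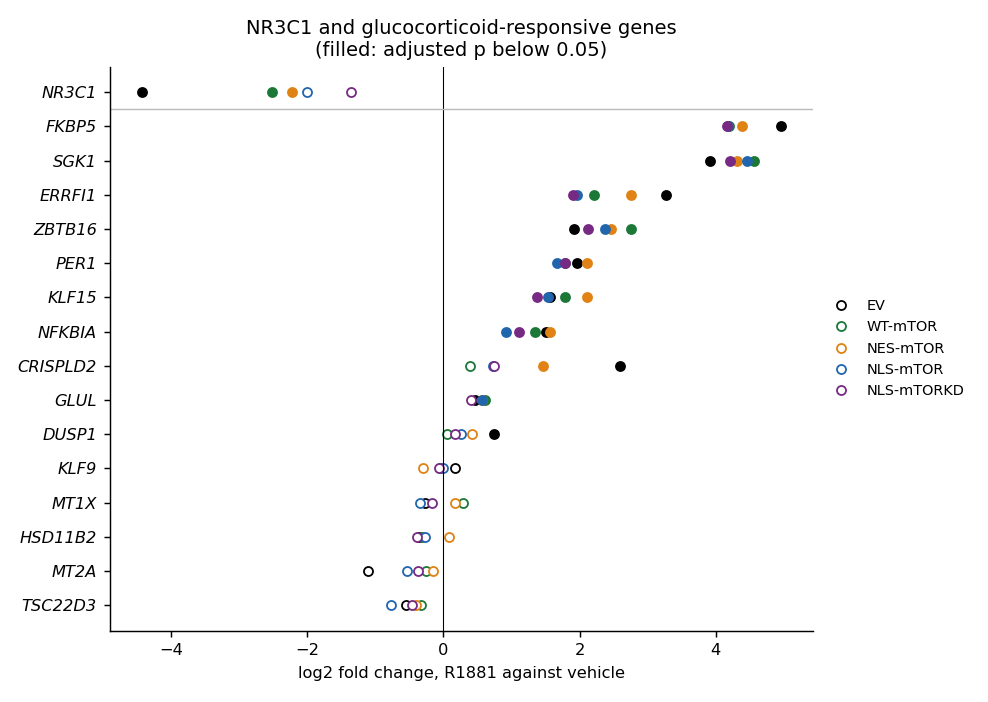
Log2 fold change of R1881 against vehicle (x axis) in each line for NR3C1 (top row) and 15 tested genes of glucocorticoid response or metabolism, with filled points at an adjusted p under 0.05. NR3C1 lies left of 0 in all 5 lines, while FKBP5 lies at 4.17 to 4.96 and SGK1 at 3.91 to 4.56 log2 units.

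The other prostate lineage regulators and the epithelial genes were mixed. Of 8 regulators tested 2 rose and 2 fell in the averaged response, in which 27.4% of all genes were called, with a median of -0.01 against 0.00 for all genes. KLF5 rose by 2.78 ± 0.16 log2 units (edgeR adjusted p = 1.33e-13) and CREB3L4 by 1.23 ± 0.12 (6.65e-09), while SOX9 fell by 0.48 ± 0.11 (0.00114). Against EV with vehicle RARG was lower in all 4 rescue lines, by 0.77 to 0.89 (edgeR adjusted p from 0.00314 to 0.013), and XBP1 higher in NLS-mTORKD by 0.65 ± 0.15 (0.0103). Under R1881 CREB3L4 was lower than EV in WT-mTOR and in NLS-mTOR, by 0.95 ± 0.27 in each (edgeR adjusted p = 0.0245 and 0.0295). Of 17 epithelial genes 4 rose and 2 fell in the averaged response, a share near the 27.4% of all genes called, with a median of 0.08. KRT8 rose by 1.21 ± 0.14 (edgeR adjusted p = 9.2e-08), KRT18 by 1.03 ± 0.16 (1.18e-05) and the splicing factor ESRP2 by 0.51 ± 0.08 (2.25e-05). CLDN3 was lower than EV in all 4 rescue lines under both treatments, with edgeR adjusted p from 3.63e-06 (WT-mTOR with R1881, -2.66 ± 0.33) to 0.0103 (NES-mTOR with vehicle, -1.34 ± 0.32). CLDN4 with R1881 was lower in WT-mTOR (-1.21 ± 0.21, edgeR adjusted p = 2.74e-04), NLS-mTOR (-1.03, 0.00215) and NLS-mTORKD (-1.01, 0.00294), while NES-mTOR was at -0.59 (0.0896). ESRP2 was lower in NLS-mTORKD with R1881 by 0.74 ± 0.18 (edgeR adjusted p = 0.0132).

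Of 20 coregulators tested, 3 rose and 4 fell in the averaged response, a share near the 27.4% of all genes called, with a median of 0.06 against 0.00 for all genes. MEIS1, a homeodomain partner of HOX proteins, rose by 1.31 ± 0.11 log2 units (edgeR adjusted p = 5.08e-10). The corepressors TLE3 and CTBP1 fell by 0.79 ± 0.08 (edgeR adjusted p = 7.02e-09) and 0.59 ± 0.11 (1.08e-04). Against EV under R1881 MEIS1 (1.39 ± 0.25, edgeR adjusted p = 3.71e-04) and the coactivator gene NCOA1 (0.97 ± 0.28, edgeR adjusted p = 0.0291) were higher in WT-mTOR. TLE3 in NES-mTOR with vehicle was at -0.53 ± 0.17 of EV (edgeR adjusted p = 0.0894).

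Markers of other cell types stayed low in level beside SPDEF and GRHL2, though some passed the test. KRT14, the basal keratin, had 26 counts over the vehicle libraries and 415 over the R1881 libraries (edgeR adjusted p = 1.2e-07), and the group means of the summed basal level were 0 to 0.105 FPKM with vehicle and 0.218 to 0.988 FPKM with R1881. KRT14 was also lower in WT-mTOR than in EV with vehicle, with 0 against 18 counts (edgeR adjusted p = 0.0436). The other 3 basal markers stayed under 0.1 FPKM. The stromal markers COL1A1 (-0.50, edgeR adjusted p = 5.3e-04) and ACTA2 (-0.58, edgeR adjusted p = 0.017) fell in the averaged response, with group means of the summed stromal level of 2.29 to 2.91 FPKM with vehicle and 1.53 to 2.06 FPKM with R1881. Neither SYP (0.32, edgeR adjusted p = 0.447) nor NCAM1 (-0.03, edgeR adjusted p = 0.966), the tested neuroendocrine markers, passed. Of 6 luminal markers 5 rose and 1 fell in the averaged response, beside 27.4% of all genes called, with SLC45A3 at 4.33 ± 0.09 and TMPRSS2 at 4.14 ± 0.10 (edgeR adjusted p = 7.45e-23 and 3.24e-21). The part of these markers in the results for the 6 factors was not tested.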

How the data were processed

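RNA from LNCaP cells was sequenced in 30 libraries as paired reads of 150 bases, per the labels' protocols. Per the submitters' processing notes, HISAT2 2.0.5, featureCounts 1.5.0-p3 and hg38 were used; the strand setting is not given in the sources used here. The authors deposited raw gene counts and FPKM values, both for 58735 genes. Counts were tested with edgeR 4.0.16 (R 4.3.3) by its quasi-likelihood test, with TMM factors, filterByExpr (18296 genes kept) and 1 mean per group over all 30 libraries, and p-values were adjusted by Benjamini-Hochberg within each of 27 comparisons. CPM are computed with those factors, and SE is the fold change over the root of F. FPKM served only for levels and for limma 3.58.1 on log2(FPKM + 1). DESeq2 1.42.0 was an alternative. The fit was tested on simulated counts with 200 changed genes. Every pair of replicates differed by more than counting noise, with a chi-square of 12.7 or more for each degree of freedom.

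The members and the 10 gene lists were chosen with earlier results of these data known. Some list genes are not reported here, and list counts leave them out. The text names the 6 members, the 3 genes most like each, and from each list up to 3 genes by adjusted p in the averaged response and up to 3 against EV. GATA3, ERG, FOXA2, EHF, ETV1, HSD11B2 and, in the averaged response, TSC22D3 were named after their values were seen.

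Replicate numbers were taken to pair 2 groups where all 3 same-numbered pairs of deviations from the group means correlated above 0.1 over genes. That held for 4 of the 5 responses to R1881 (not NLS-mTOR) and, against EV, for NLS-mTOR and NLS-mTORKD under both treatments. Other alternatives were upper-quartile factors, no low-count filter, fits on the compared groups only, each library left out, and, chosen after seeing the data, leaving out the 5 libraries above 9% mitochondrial counts. Depth was 21435364 to 61762468 counts per library.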

Additional observations from a re-analysis of the deposited data

How the results depend on the processing

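Member calls against EV were the least stable count. The 3 calls became 7 with no filter on low counts, 10 with the replicate block and 7 with DESeq2, stayed at 3 with upper-quartile factors or limma on FPKM, were 4 without the 5 libraries of high mitochondrial share (chosen after seeing the data), and ran from 1 to 5 when each library was left out. The 13 calls in the single-line responses ran from 11 to 17 over the other settings and from 12 to 15 with a library left out. The averaged response had 5 calls, and the comparisons between rescue lines and between responses 0, under each alternative run. A fit on the compared groups alone gave no total against EV or between rescue lines, since NR3C1 did not pass the low-count filter in 4 of those comparisons, and it is the same fit for the averaged response, which uses all 10 groups.

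Of the members' single values, 1076 kept their side of the threshold under the other settings, 38 gained and 10 lost a call; with a library left out these were 1281, 4 and 11. No called value changed sign, and 178 of 2420 uncalled values did. The replicate block lost no call. Over all 45 pairs of groups 21 met the pairing rule, with correlations from -0.63 to 0.92, and in 63.0% of the same-numbered pairings over these pairs of groups a library deviated most like the other group's library of its own number; where it was not met, the block gained calls for GATA2 (NLS-mTOR response, WT-mTOR against EV with R1881), NR3C1 (NLS-mTOR response) and SPDEF (WT-mTOR against EV with R1881). Depth limits NR3C1, at 0 to 28 counts per R1881 library.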
